A study of Rattus norvegicus with 6 samples.

Results

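A set of 119 genes that were higher in tissue-engineered rostral migratory stream (TE-RMS) astrocytes than in planar astrocytes in each of 3 runs was examined in 6 RNA-seq libraries. The genes were chosen by their own values in these libraries. Counts were scaled to CPM, counts per 1000000 counts of the library, the log2 ratio of TE-RMS over planar, with 2 CPM added to both, was taken within each run, and the 23940 genes listed were ranked by their lowest ratio over the runs. Among the first 150, 12 were set aside because their symbols begin with a prefix for transporters, collagens, integrins, ADAM proteases, glutathione enzymes or mitochondrial genes (Slc, Col, Itg, Adam, Gst, Gcl, Mt-), 13 because they belong to antioxidant or other named genes treated apart, and 3 because they are members of the study's actin cytoskeleton set. A further 3 carried no paired symbol and could not be assigned, which left 119. Every difference between TE-RMS and planar astrocytes given for these genes is therefore a description of what selected them, and no test of it is offered as support.

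TE-RMSs are bundles of longitudinally aligned astrocytes that assemble in collagen-coated agarose microchannels, and they are modelled on the glial tube through which neural precursors travel from the subventricular zone to the olfactory bulb. Planar cultures are the same astrocytes plated on flat collagen. The cells of both groups were cortical astrocytes from Sprague-Dawley rats of either sex taken on postnatal day 0-1, without genetic alteration, at passage 4, and both were kept in the same medium and harvested at 4 days in vitro. Each run gave 1 TE-RMS and 1 planar library, and values are given in the order of the runs, named July, September and October for the dates in their labels. Each TE-RMS library pooled TE-RMSs that were chosen for tight bundling and kept frozen in RNAlater, while RNA of planar cultures was taken from fresh wells, and bundling, storage and selection cannot be told apart. Each run used other animals. The planar libraries held 70682593, 70478784 and 56483332 counts and the TE-RMS libraries 54601354, 77277336 and 64537115.

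Astrocytes take up glutamate, couple to one another through gap junctions, buffer potassium with their sodium pumps, and carry receptors for many transmitters and peptides. They also hold much of the brain's capacity to store lipid droplets, to release arachidonic acid and turn it into prostanoids, and to conjugate or oxidize foreign compounds. The 119 genes are described below by the role of their products.

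All 119 genes passed the minimum of 10 counts in total that 16331 genes met. The ratio over the 3 runs averaged from 1.14 to 3.71 among them with a median of 1.55, against a median of -0.04 over all tested genes. The lowest ratio of the 3 had a median of 1.25 and reached 2.85 in Pla2g7. A quasi-likelihood fit in edgeR that kept each run as a block also called all 119 higher (adjusted p under 0.05), which 9.36% of tested genes were, but the rule used the same contrast and nothing is read from this count. In 111 of the 119 every TE-RMS library lay above every planar library, which was so for 12.4% of tested genes. The groups overlapped in Bambi, Gpm6a, Cspg5, Adss, Armh4, Gdf15, Snap91 and Mmp2, each of which was nonetheless higher in TE-RMS astrocytes within every run, as the rule requires.

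Together the genes took 0.819%, 0.969% and 0.826% of the counts of the planar libraries and 2.41%, 2.77% and 2.32% of those of the TE-RMS libraries. Their mean planar level had a median of 26.7 CPM and ran from 0.385 to 2484 CPM, against a median of 9.56 CPM over tested genes, on a scale that is not corrected for transcript length. The planar mean was under 10 CPM in 28 of them, between 10 and 100 CPM in 69, and above that in 22. The 2 CPM added before taking ratios keeps genes of low count out of the ranking and understates the change of those near that level.

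**Figure D1:**
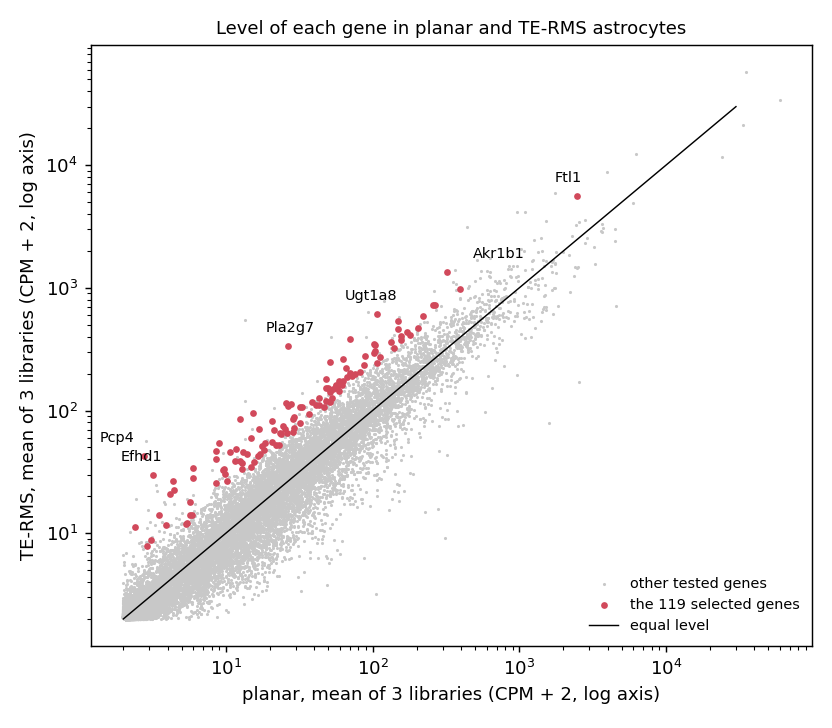
Mean level of each tested gene over the 3 planar libraries (x axis) and the 3 TE-RMS libraries (y axis), in CPM plus 2 on log axes, with the 119 selected genes in red, other tested genes in grey and a line of equal level. The selected genes lie above the line over the whole range of planar levels, from 0.385 to 2484 CPM, as their selection requires.

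The rank limit cut through a continuous series of values. The last genes inside it were Tsr1, a ribosome assembly factor, Tafazzin, the cardiolipin remodelling enzyme, and Mmp2, a gelatinase, each with a lowest ratio of 1.08. The first named genes outside it were Plekhb1 with a lowest ratio of 1.08, and Zbtb18 and Tex10 with 1.07. The ranks of the 3 unassigned genes were 71, 78 and 90.

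A ranking that left out a run could be read in that run, which it had not used. Of 150 genes ranked on September and October, 147 had a positive ratio in July, with a median of 1.53. For rankings that left out September or October the counts were 146 and 148 and the medians 1.34 and 1.41. Over all tested genes 50.5%, 39.6% and 38.0% had a positive ratio in July, September and October. A ratio above 1 in the run left out was held by 112, 109 and 117 of the 150, and by 5.63%, 3.20% and 5.09% of all tested genes. Each of these rankings shared 110, 101 and 107 genes with the ranking on all 3 runs. These figures describe the ranked genes before the exclusions, and the runs share the same protocol and the same difference in storage. The tested genes needed only 10 counts in total, and the 2 CPM added keeps the ratios of the lowest small. Their shares are thus not matched in level to the ranked genes, and nothing is read from the contrast.

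Receptors, channels and other surface proteins formed the largest group with a role, at 18 genes, and their mean ratios ran from 1.29 to 2.47. Htr2a, the serotonin 2A receptor, had 7.88, 7.87 and 4.09 CPM in planar and 44.1, 42.4 and 29.2 CPM in TE-RMS libraries, a mean log2 ratio of 2.25 ± 0.10 (SD, n = 3 runs). Lrrn3, a leucine-rich repeat membrane protein of neural cells, had 9.11, 7.79 and 2.62 CPM against 70.1, 38.3 and 27.3 CPM. Ednrb, the endothelin B receptor of astrocytes, had 9.17, 5.86 and 13.3 CPM against 41.0, 23.8 and 44.5 CPM. In all 3 the lowest TE-RMS library stood above the highest planar one. Ednrb on chromosome 15 (mRatBN7.2, 80643043 to 80672115, minus strand) was 1 of 2 paired genes of a 7-gene endothelin list, and the other, Edn1, the ligand, was called lower, with 3.93, 19.4 and 37.8 CPM in planar and 1.63, 2.90 and 2.96 CPM in TE-RMS libraries.

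Several surface proteins that define astrocytes were in the group. Gja1, the gap junction protein connexin 43, had 263, 289 and 238 CPM in planar and 564, 758 and 848 CPM in TE-RMS libraries. Ntrk2, the BDNF receptor TrkB, had 94.0, 60.0 and 57.8 CPM against 263, 152 and 155 CPM. Atp1b2, the beta-2 subunit of the sodium pump, had 53.8, 53.2 and 75.3 CPM against 499, 116 and 175 CPM, so that the July TE-RMS library stood far above the others. Pdpn (podoplanin), Tfrc, the transferrin receptor, Glrb and Gabra2, subunits of glycine and GABA-A receptors, and Cd38, an ectoenzyme that consumes NAD, were further members, with mean ratios of 1.68, 1.67, 1.31, 1.29 and 1.89.

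The label astrocyte was checked against marker lists, with the limit that gene names were read here for 1517 genes only, a part of the study's table that holds its smallest p-values, so that a gene could be looked up only if it differed. Every number of paired genes below depends on that part, and 751 of the 1517 (49.5%) were called higher and 762 lower by edgeR. Genes of a list that were not paired were not analysed here. Of 15 astrocyte markers 7 were paired, 6 called higher and 1, Fgfr3, lower. Of the 6, 4 were among the selected genes (Gja1, Ntrk2, Atp1b2 and Ednrb). The others, Slc1a2 and Slc1a3, held ranks 16 and 82, inside the rank limit, and were set aside for their Slc prefix. All 6 were thus ranked for being higher, and nothing is read from their number. Fgfr3, a fibroblast growth factor receptor, had 101, 71.1 and 275 CPM in planar and 21.5, 11.3 and 35.5 CPM in TE-RMS libraries, and edgeR fitted a log2 change of -2.57. The summed level of the 7, most of it from Slc1a3 and Gja1, was 752, 741 and 955 CPM in planar and 2146, 1700 and 2146 CPM in TE-RMS libraries. Slc1a3, the glutamate transporter GLAST, had 230, 260 and 295 CPM against 750, 627 and 868 CPM. These 7 astrocyte markers thus had counts in every library of both groups, though Slc1a2 had only 0.396, 1.36 and 1.10 CPM in planar libraries. In bulk libraries more cells of a kind and more RNA per cell cannot be told apart.

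Markers of other cell types were looked up in the same way. For microglia 2 of 13 were paired. Cd68 was called higher, at 1.25, 16.1 and 0.832 CPM in planar and 9.03, 79.5 and 3.69 CPM in TE-RMS libraries, and Tmem119 lower, at 23.6, 23.8 and 28.3 CPM against 5.46, 5.21 and 8.99 CPM. For neurons 2 of 12 were paired and both called higher. Snap25 had 0.0141, 4.03 and 0.0531 CPM in planar and 0.476, 56.6 and 3.44 CPM in TE-RMS libraries, and Map2 12.2, 3.80 and 6.30 CPM against 35.8, 28.4 and 14.3 CPM. The September run thus stood apart for Cd68 and Snap25 in both conditions. For the oligodendrocyte lineage 3 of 13 were paired, 2 called higher and 1 lower, with summed levels of 12.8, 18.8 and 64.6 CPM in planar and 69.3, 17.4 and 144 CPM in TE-RMS libraries. The 3 paired of 10 fibroblast or meningeal markers, all collagens, were called lower, with summed levels of 618, 405 and 679 CPM in planar and 187, 134 and 225 CPM in TE-RMS libraries. None of 8 endothelial and 13 proliferation markers was paired. The part of these markers in the values below was not tested.

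Secreted and extracellular proteins numbered 7. Edil3, a matrix protein that binds integrins, had 12.4, 4.19 and 4.23 CPM in planar and 67.0, 38.4 and 50.8 CPM in TE-RMS libraries, a mean log2 ratio of 2.69 ± 0.41 (SD, n = 3 runs). Hpse, the heparanase that cleaves heparan sulfate, had 2.50, 7.08 and 2.18 CPM against 14.3, 35.4 and 29.4 CPM. Bmper, which binds bone morphogenetic proteins outside the cell, had 0.722, 3.06 and 2.74 CPM against 9.29, 14.1 and 33.7 CPM. In all 3 the groups did not overlap. Tll1, a tolloid-like metalloprotease, and Mamdc2 had mean ratios of 1.81 and 2.01. Mmp2 had 3.27, 5.79 and 0.991 CPM in planar and 9.10, 15.4 and 4.83 CPM in TE-RMS libraries, so that the October TE-RMS library lay below the September planar one.

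Gdf15, a stress-induced member of the TGF-beta family, had 0.948, 4.72 and 1.36 CPM in planar and 4.47, 57.3 and 12.7 CPM in TE-RMS libraries. Its ratio was 1.13, 3.14 and 2.13 in the 3 runs, and the September libraries were the highest of both conditions. It is 1 of 25 listed p53 target genes, of which 6 were paired, 3 called higher (Gdf15, Eda2r and Ccng1) and 3 lower (Btg2, Bax and Bbc3). Eda2r, a receptor for ectodysplasin A2 and also a selected gene, had 0.368, 1.89 and 0.425 CPM in planar and 5.37, 7.57 and 4.51 CPM in TE-RMS libraries. The paired genes of the list were thus called in both directions, where 49.5% of all paired genes were called higher. Gdf15 and Eda2r were selected for being higher, so nothing is read from the split.

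A list of redox, aldehyde, xenobiotic and related enzymes held 8 of the genes, with mean ratios from 1.66 to 2.60. The groups overlapped in none of the 8, while 111 of the 119 had no overlap. The list was not complete, and Ephx1, the microsomal epoxide hydrolase, was given no role and had a mean ratio of 1.21. Ugt1a8, a UDP-glucuronosyltransferase that conjugates lipophilic compounds, had 99.9, 124 and 91.8 CPM in planar and 481, 752 and 594 CPM in TE-RMS libraries, a mean log2 ratio of 2.50 ± 0.22 (SD, n = 3 runs). Genes of the Ugt1a locus share their later exons, so the division of reads among them is uncertain. Entpd5, a nucleoside diphosphatase of the endoplasmic reticulum, had 9.80, 11.0 and 10.6 CPM against 62.7, 140 and 45.1 CPM. Crym, which binds thyroid hormone and reduces ketimines, had 67.4, 44.6 and 91.5 CPM against 739, 141 and 271 CPM. The planar levels of Entpd5 were nearly equal, while its September TE-RMS library was over 2 times the others, and for Crym the July TE-RMS library was the high one.

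Maoa, the monoamine oxidase that degrades serotonin and noradrenaline, had 106, 78.7 and 73.6 CPM in planar and 310, 240 and 273 CPM in TE-RMS libraries. Aox1, aldehyde oxidase, and Akr1b1, aldose reductase, had mean ratios of 1.79 and 1.99, the latter with reads that close relatives of the aldo-keto reductase family may share. Osgin1, induced by oxidative stress, had 2.07, 6.53 and 2.43 CPM in planar and 10.6, 22.5 and 14.6 CPM in TE-RMS libraries. Pir, the iron-binding protein pirin, had 22.3, 71.4 and 48.6 CPM against 96.0, 191 and 168 CPM. For these genes too the lowest TE-RMS library was above the highest planar one.

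Upstream sequence of Pir is shown because antioxidant-response genes share a short motif, the core of the antioxidant response element (letters TGACNNNGC, on either strand). RefSeq promoters of GRCr8, 250 bases before to 50 after the annotated start, were at hand for 94 of the 119 genes, 79.0%, so any comparison of base composition or motif share over the whole set is void, as under 80% have a value, and none is given. Pir held the core, as 12.1% of all 33469 promoters do, while the windows of Ugt1a8, Entpd5, Maoa, Osgin1 and Aox1 did not. No share is read from this. Its 2 matches lie 114 and 9 bases before the start on chromosome X, at chrX:33851139-33851179 and chrX:33851034-33851074 (minus strand), the core in capitals:
Pir, farther match: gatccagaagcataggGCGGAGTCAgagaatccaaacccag
Pir, nearer match: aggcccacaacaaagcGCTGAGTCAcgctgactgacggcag
A match of these letters describes the sequence and says nothing of a factor bound there. Selected genes outside this role, among them Lrrn3, Cd24 and Bambi, held the core too.

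Lipid, steroid and eicosanoid genes numbered 14, and in all 14 the groups did not overlap, as in 111 of the 119. Pla2g7, the platelet-activating factor acetylhydrolase (chromosome 9, 17362225 to 17404476, minus strand), had 27.4, 36.8 and 9.40 CPM in planar and 210, 536 and 256 CPM in TE-RMS libraries. Its mean log2 ratio of 3.71 ± 0.83 (SD, n = 3 runs), or 13.1-fold, was the largest of the 119 with 2 CPM added. In the edgeR fit, which adds far less, its log2 fold change was 3.90 and those of Rnf128, Pcp4 and Efhd1, of low planar level, were 5.21, 5.15 and 4.60. That of Pcp4 was 4.03 without the September run, where Rnf128 had 5.93, Efhd1 5.01 and Pla2g7 3.84. Without July and October Pcp4 had 5.93 and 5.78, above Rnf128 with 4.88 and 4.90. The size of the change in Pcp4 and Rnf128 and their place in this order thus shifted with the run left out, and neither fell below 4.03. Efhd1 ran from 4.13 to 5.01 and Pla2g7 from 3.45 to 4.44 in the same fits. For Pla2g7 the October planar library was the low one, and there the ratio reached 4.50. Plcd4, a phospholipase C, had 1.63, 1.18 and 2.85 CPM against 8.96, 7.63 and 12.4 CPM. Its ratio of 1.59 ± 0.02 was nearly equal between runs with 2 CPM added, which is about its planar level and draws the ratios together.

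Enzymes of the route from membrane phospholipid to prostanoids were among them. Pla2g4a, the cytosolic phospholipase A2 that frees arachidonic acid, had 4.67, 6.13 and 11.7 CPM in planar and 13.9, 32.6 and 45.6 CPM in TE-RMS libraries. Ptgs2, cyclooxygenase 2, had 2.07, 6.10 and 3.65 CPM against 7.42, 60.3 and 28.4 CPM. Tbxas1, thromboxane A synthase, had 1.66, 0.851 and 0.814 CPM against 6.39, 7.92 and 6.21 CPM. The ratio of all 3 genes was lowest in July and highest in September. Of 15 listed genes of prostanoid and lipid mediator synthesis 5 were paired and all 5 called higher, where 49.5% of paired genes were. Of these 4 were selected for being higher, and the fifth was Ptges3 with ratios of 0.58, 0.84 and 0.87.

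Pla2g4a and Ptgs2 were also next to each other in the RefSeq order of protein-coding genes, the only such pair among the 94 selected genes that could be placed there, on chromosome 13, where they point away from each other (mRatBN7.2, 61877813 to 62022266 on the minus strand and 62163932 to 62172188 on the plus strand). Their promoters are given for this reason, from GRCr8 at chr13:64572303-64572602 (minus strand) and chr13:64713813-64714112 (plus strand), with the E-box CACGTG, searched on both strands, in capitals:
Pla2g4a: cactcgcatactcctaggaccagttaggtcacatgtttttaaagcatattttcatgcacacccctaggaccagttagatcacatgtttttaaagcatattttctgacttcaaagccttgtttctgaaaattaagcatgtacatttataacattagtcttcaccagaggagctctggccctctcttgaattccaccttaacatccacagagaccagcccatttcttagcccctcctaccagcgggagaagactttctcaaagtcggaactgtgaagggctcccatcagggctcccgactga
Ptgs2: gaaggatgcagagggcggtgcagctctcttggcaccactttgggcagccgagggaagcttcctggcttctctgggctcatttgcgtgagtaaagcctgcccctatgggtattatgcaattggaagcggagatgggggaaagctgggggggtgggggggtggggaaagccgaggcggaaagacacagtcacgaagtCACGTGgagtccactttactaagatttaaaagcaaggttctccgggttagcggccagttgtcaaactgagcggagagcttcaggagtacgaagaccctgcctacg
Ptgs2 held 1 E-box, 55 bases before its start, and Pla2g4a none in this window. The E-box is in 6.42% of all promoters of this length.

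Lipid droplet genes were represented by Plin2, the droplet coat protein perilipin 2, and G0s2, the inhibitor of adipose triglyceride lipase. Plin2 had 82.2, 121 and 97.3 CPM in planar and 182, 445 and 257 CPM in TE-RMS libraries. G0s2 had 21.4, 39.7 and 29.5 CPM against 52.2, 112 and 148 CPM. For both, every TE-RMS library was above every planar one, and the July TE-RMS library was the lowest of the 3. Of 16 listed droplet and lipolysis genes 3 were paired and all called higher, against 49.5% of paired genes, but Plin2 and G0s2 were selected for it. The third was Abhd5, the lipase activator, with ratios of 0.97, 0.94 and 0.76. Other lipid genes were Nceh1, which hydrolyses cholesterol esters, Elovl5, a fatty acid elongase, Acbd5 of peroxisomes, Sacm1l and Pip4p2, phosphoinositide phosphatases, and Tafazzin, with mean ratios from 1.35 to 1.53.

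**Figure D2:**
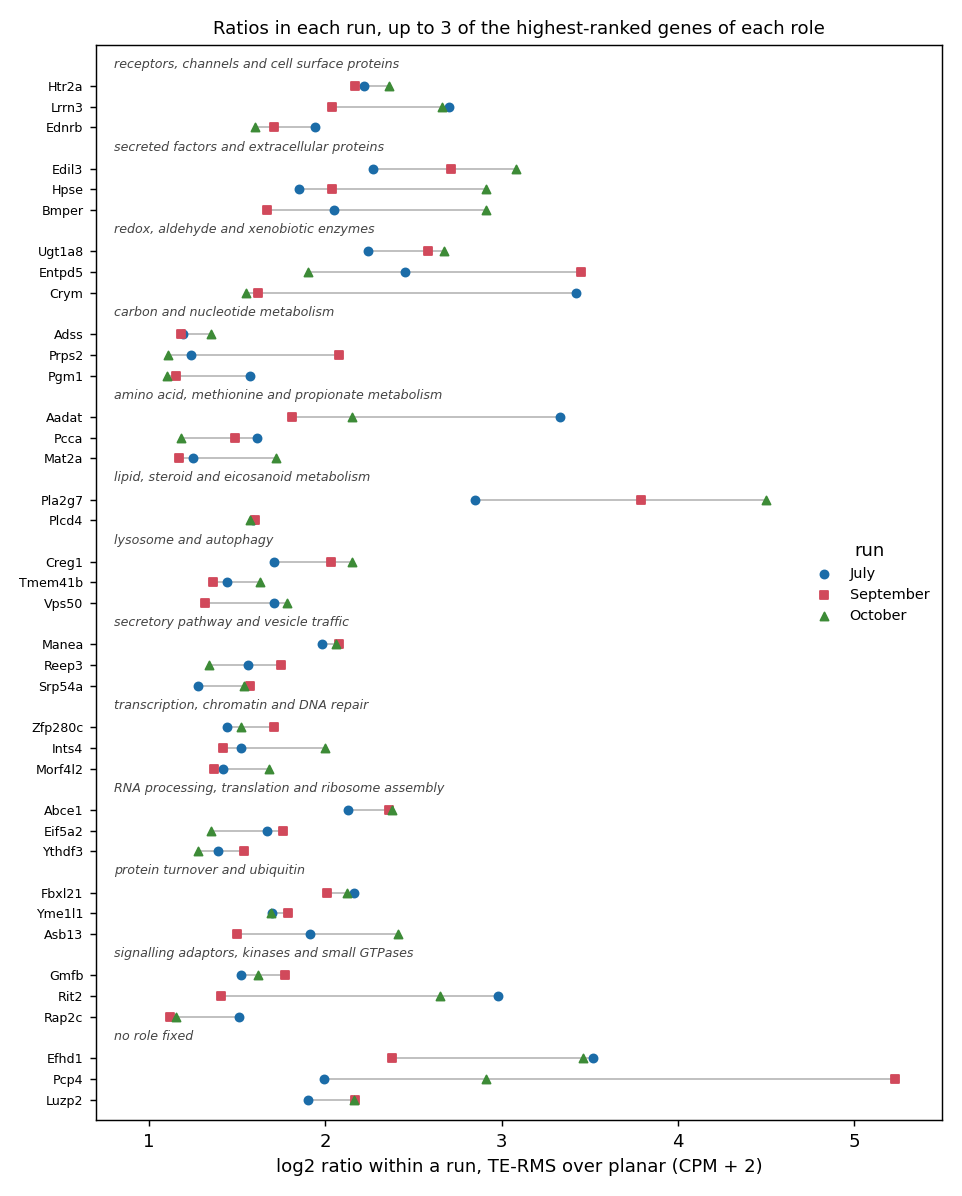
Log2 ratio of TE-RMS over planar within each run (x axis, CPM plus 2) for up to 3 of the highest-ranked genes of each role, with a grey line from the lowest to the highest run. Pcp4 spans from 1.99 to 5.23, while Manea and Yme1l1 sit nearly at 1 value in all 3 runs, as does Plcd4, whose planar level is about the 2 CPM added.

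Carbon and nucleotide metabolism held 3 genes and amino acid metabolism 3. Prps2, which makes phosphoribosyl pyrophosphate, had 44.5, 50.8 and 67.6 CPM in planar and 108, 220 and 148 CPM in TE-RMS libraries, and Pgm1, phosphoglucomutase, 58.0, 42.4 and 70.4 CPM against 176, 96.9 and 153 CPM. Adss, adenylosuccinate synthase, had 175, 326 and 105 CPM against 401, 743 and 270 CPM, so that the groups overlapped while its ratio of 1.19, 1.18 and 1.35 was nearly the same in every run. Prps2 is 1 of 10 listed pentose phosphate genes, of which 3 were paired and all called higher, against 49.5% of paired genes. Taldo1, transaldolase, had ratios of 0.80, 2.38 and 2.13, so that its July ratio kept it under the rank limit.

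Aadat, the aminotransferase that makes kynurenic acid, had 14.5, 11.8 and 13.8 CPM in planar and 164, 46.4 and 68.1 CPM in TE-RMS libraries, a mean log2 ratio of 2.43 ± 0.80 (SD, n = 3 runs). Pcca, a subunit of propionyl-CoA carboxylase, had 23.0, 18.9 and 23.7 CPM against 74.6, 56.6 and 56.2 CPM. Mat2a, which makes S-adenosylmethionine, had 137, 203 and 124 CPM against 329, 459 and 414 CPM. Planar levels of Aadat were nearly equal, and its July TE-RMS library stood apart, as for Crym and Atp1b2.

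Lysosome and autophagy genes numbered 4. Creg1, a secreted glycoprotein of endosomes and lysosomes, had 18.5, 21.4 and 16.4 CPM in planar and 65.3, 93.1 and 79.8 CPM in TE-RMS libraries. Tmem41b, a lipid scramblase needed to form autophagosomes, had 22.0, 22.9 and 19.3 CPM against 63.1, 61.8 and 64.1 CPM. Vps50, of an endosomal recycling complex, had 24.7, 30.9 and 23.7 CPM against 85.4, 80.4 and 86.0 CPM. In these genes the libraries of a condition lay close together and the conditions well apart. Of 33 listed lysosomal genes 10 were paired, 8 called higher, against 49.5% of paired genes, and 2 lower. Of the 8, Creg1 and Hpse were selected for being higher. Ctsl and Ctsz, the cathepsins called lower, had edgeR log2 fold changes of -1.35 and -1.07, against 1.52 for Ctsb, a cathepsin called higher.

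Secretory pathway genes numbered 9 with mean ratios from 1.17 to 2.04. Manea, the Golgi endomannosidase that trims glucosylated mannose, had 24.9, 24.1 and 24.7 CPM in planar and 104, 109 and 109 CPM in TE-RMS libraries, a mean log2 ratio of 2.04 ± 0.05 (SD, n = 3 runs). Reep3, which shapes the endoplasmic reticulum, had 60.1, 58.2 and 53.1 CPM against 181, 201 and 138 CPM. Srp54a, the GTPase subunit of the signal recognition particle, had 63.6, 76.7 and 55.3 CPM against 158, 232 and 165 CPM. All 3 were well apart between conditions, and the libraries of a condition were nearly equal for Manea. Of 27 listed COPI, COPII and cargo receptor genes 8 were paired, 7 called higher, against 49.5% of paired genes, and 1, Tmed9, lower. Of the 7, Copb1, the beta subunit of the COPI coat, and Tmed7 were selected for being higher, with mean ratios of 1.29 and 1.43. Tmed9 had ratios of -1.17, -1.02 and -1.37.

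Genes of transcription and chromatin numbered 8, and their mean ratios lay close together, from 1.22 to 1.65. Zfp280c, a zinc finger protein, had 5.94, 7.42 and 6.36 CPM in planar and 19.5, 28.9 and 22.0 CPM in TE-RMS libraries. Ints4, of the Integrator complex that processes small nuclear RNA, had 34.5, 26.1 and 32.6 CPM against 103, 73.1 and 137 CPM. Morf4l2, of histone acetylation complexes, had 221, 307 and 240 CPM against 596, 799 and 775 CPM. The groups did not overlap in any of the 8, as in 111 of the 119. The 8 also included Atf2, a stress-responsive transcription factor, Bmi1, of Polycomb complex 1, and Hltf, a helicase of DNA damage tolerance.

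RNA and translation genes numbered 9. Abce1, which splits ribosomes after termination, had 50.0, 53.5 and 43.7 CPM in planar and 225, 282 and 237 CPM in TE-RMS libraries, a mean log2 ratio of 2.29 ± 0.14 (SD, n = 3 runs). Eif5a2, a translation factor that carries hypusine, had 19.5, 25.5 and 22.3 CPM against 66.2, 91.4 and 59.9 CPM. Ythdf3, a reader of N6-methyladenosine, had 62.2, 52.8 and 50.2 CPM against 166, 157 and 125 CPM. Abce1 stood apart in this role, since the other 8 had mean ratios of 1.24 to 1.59.

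Protein turnover genes numbered 9. Fbxl21, an F-box protein that targets cryptochromes of the circadian clock, had 9.95, 22.1 and 12.3 CPM in planar and 51.3, 95.5 and 60.5 CPM in TE-RMS libraries. Yme1l1, a protease of the mitochondrial inner membrane, had 106, 112 and 86.6 CPM against 349, 390 and 284 CPM. Asb13, of a ubiquitin ligase family, had 1.16, 1.40 and 1.91 CPM against 9.89, 7.61 and 18.8 CPM. The ratio of Fbxl21 was nearly constant, at 2.16, 2.01 and 2.12, although its September libraries were the highest in both conditions. Of 21 listed clock genes 4 were paired, 3 called higher (Nr1d2, Per3 and Bhlhe40), against 49.5% of paired genes, and 1, Tef, lower. None of the 4 was a selected gene. Nr1d2, a repressor in the clock, had 18.2, 29.2 and 20.3 CPM in planar and 71.0, 57.6 and 51.0 CPM in TE-RMS libraries.

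Rnf128, a ubiquitin ligase of the endosomal membrane, was the gene with the lowest counts, at 2, 67 and 10 in planar and 143, 1289 and 531 in TE-RMS libraries. It was the only one of the 119 with under 10 counts in any library, and with 2 CPM added its ratios were 1.19, 2.66 and 2.23.

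Signalling genes numbered 4. Gmfb, glia maturation factor beta, had 177, 127 and 135 CPM in planar and 514, 437 and 418 CPM in TE-RMS libraries. Rit2, a small GTPase of neural cells, had 1.98, 4.30 and 1.10 CPM against 29.4, 14.7 and 17.5 CPM, and Rap2c, a small GTPase of the Ras family, 3.82, 5.22 and 2.62 CPM against 14.5, 13.7 and 8.23 CPM. The groups did not overlap in any of the 4, as in 111 of the 119. The ratio of Gmfb varied the least, at 1.64 ± 0.12 (SD, n = 3 runs).

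A further 23 genes were given no role. Efhd1, a calcium-binding protein of mitochondria, had 1.92, 1.11 and 0.513 CPM in planar and 43.0, 14.1 and 25.8 CPM in TE-RMS libraries. Pcp4, a calmodulin-binding peptide of Purkinje cells and other neurons (chromosome 11, 35800713 to 35861725, plus strand), had 0.580, 0.497 and 1.19 CPM against 8.28, 91.8 and 21.9 CPM. Luzp2, a leucine zipper protein, had 24.7, 8.41 and 5.10 CPM against 97.2, 44.7 and 29.8 CPM. Planar levels of Efhd1 and Pcp4 were near or under the 2 CPM added, so their ratios are understated. Ftl1, the ferritin light chain, had 2225, 2897 and 2330 CPM in planar and 5530, 6305 and 5078 CPM in TE-RMS libraries, and without it the summed level of the remaining genes was 5966, 6793 and 5933 CPM against 18617, 21390 and 18147 CPM. Ferritin has processed copies, and the names Ipo11-ps1 and Il13ra1-ps1 are those of copies too, so reads of these 3 genes may be divided among near-identical sequences.

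The genes differed in how steady their ratio was. Its range over the 3 runs had a median of 0.47, was under 0.5 in 63 genes and above 1 in 19. Zfand5, a stress-associated zinc finger protein, was among the steadiest, with ratios of 1.18, 1.16 and 1.20 on levels of 102, 125 and 89.3 CPM in planar and 234, 283 and 208 CPM in TE-RMS libraries. The widest was Pcp4, whose range was 3.24, followed by Atp1b2 with 2.07 and Gdf15 with 2.01.

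Of the 19 genes with a range above 1, the ratio was highest in July in 8 (Atp1b2, Crym, Rit2, Cspg5, Aadat, Nwd1, Efhd1 and Arhgap12), in September in 7 (Pcp4, Gdf15, Ptgs2, Entpd5, Rnf128, Akr1b1 and Armh4) and in October in 4 (Pla2g7, Bmper, Hpse and G0s2). Over all 119 the ratio was highest in July in 43, in September in 41 and in October in 35, against 50.3%, 22.2% and 27.5% of tested genes. The September TE-RMS library is also the one in which Snap25 stood at 56.6 CPM and Cd68 at 79.5 CPM, and the part of neurons or microglia in the September values of Pcp4, Ptgs2 and the others was not tested. With the September run left out edgeR called 118 of the 119 higher, against 1046 of all 15625 genes then tested, but the rule used the July and October values too, so nothing is read from this count. Mmp2 was the exception, with a log2 fold change of 1.88 against 1.76 with all runs and an adjusted p of 0.0788. In the July TE-RMS library, which was high in Atp1b2 and Aadat, the summed level of the paired oligodendrocyte markers was 69.3 CPM against 12.8 CPM in its planar library. In the October TE-RMS library it was 144 CPM, with Atp1b2 at 175 CPM and Aadat at 68.1 CPM. The part of these markers in the values was not tested.

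**Figure D3:**
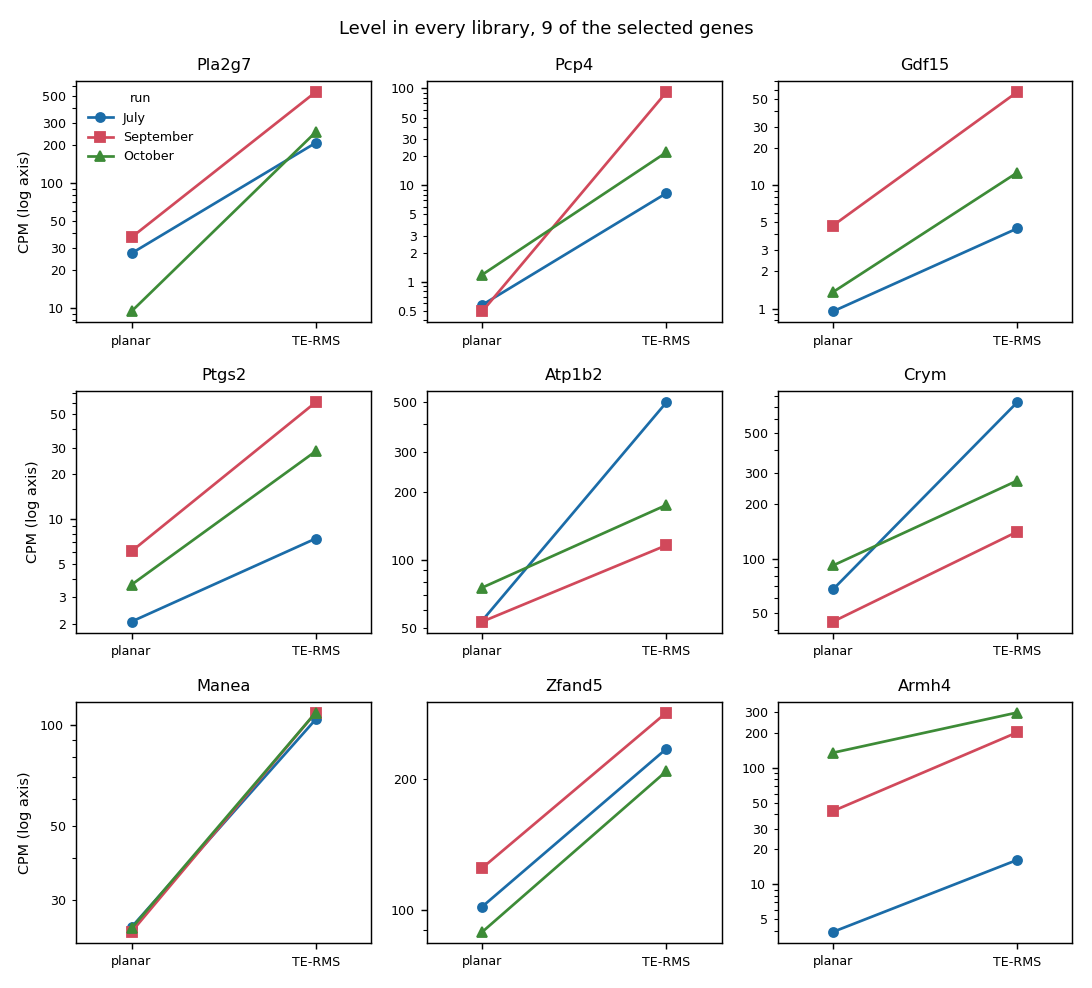
Level in CPM (log axes that differ between panels) of 9 of the selected genes in the planar and the TE-RMS library of each run, joined by run. Pcp4, Gdf15 and Ptgs2 were highest in the September TE-RMS library, Atp1b2 and Crym in the July one, Manea and Zfand5 had nearly parallel lines, and Armh4 differed more between runs than between conditions.

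The rule used only differences within runs, so the level of a gene in a run, averaged over both conditions, was not used by it. The run terms were tested jointly in the same edgeR model, but the spread that this test is set against comes from the ratios that the rule used, and the rule favours steady ratios and higher counts. The calls below are therefore a description, and nothing is read from their share. 17 of the 119 genes were called for the run (adjusted p under 0.05), or 14.3%, against 3.21% of tested genes. DESeq2 called 32 of them, the 17 included, and edgeR with at least 10 counts in 3 libraries 8 (Armh4, Bambi, Gpm6a, Luzp2, Adss, Gdf15, Mamdc2 and Pir). The median gene of the 119 differed by 0.53 on the log2 scale between its highest and lowest run. Armh4, a membrane protein, had 3.90, 42.6 and 135 CPM in planar and 16.2, 202 and 299 CPM in TE-RMS libraries. Its run terms had an adjusted p of 3.53e-05 by edgeR's quasi-likelihood test, and its level differed between runs by 4.30 on the log2 scale, against a mean ratio between conditions of 1.65. The October planar library was above the July TE-RMS library by a wide margin.

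Bambi, a decoy receptor that blocks TGF-beta signalling, had 34.9, 156 and 111 CPM in planar and 123, 462 and 458 CPM in TE-RMS libraries, low in July in both (adjusted p of the run terms 0.000604, edgeR). Gpm6a, a membrane glycoprotein of neural cells, was low in September in both, with 172, 48.3 and 83.5 CPM against 479, 131 and 305 CPM (adjusted p 0.00194, edgeR). Cspg5, the neural proteoglycan neuroglycan C, was also lowest in September, with 9.04, 4.60 and 15.3 CPM against 77.3, 14.1 and 47.2 CPM. These 3 with Adss, Armh4 and Gdf15 made up 6 of the 8 genes whose groups overlapped. Snap91, a clathrin adaptor, and Mmp2 also overlapped, at planar levels of 1.06 to 5.17 CPM and 0.991 to 5.79 CPM. Both were called for the run by DESeq2 but not in the main edgeR fit. Mmp2 was also called by edgeR with no filter beyond 1 count and with the July run left out.

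The further genes called for the run were Luzp2 and Lrrn3, highest in July, Ptgs2, Pir, Prpf39, Fbxl21 and Rnf128, highest in September, and Mamdc2, Aox1, Ephx1 and Rpgr, highest in October. Ephx1 had 84.7, 147 and 180 CPM in planar and 192, 360 and 416 CPM in TE-RMS libraries, with nearly equal ratios of 1.16, 1.28 and 1.20. No run was thus the highest in all of them.

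**Figure D4:**
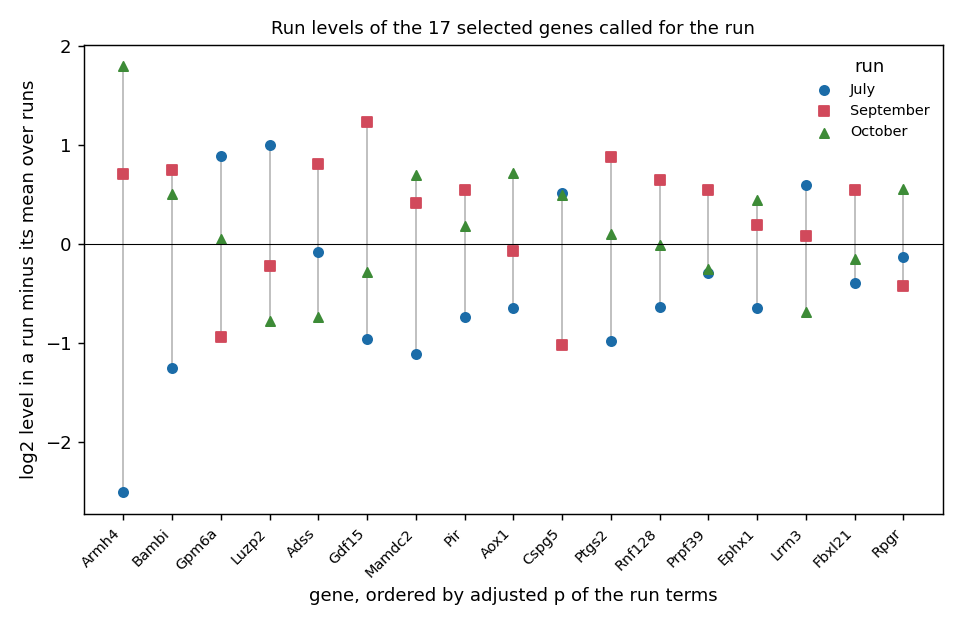
Log2 level of each of the 17 selected genes called for the run (x axis, ordered by adjusted p), averaged over the planar and TE-RMS library of a run and given relative to the mean of the 3 runs (y axis). Armh4 spans 4.30 from July to October, and no run is the highest in all genes.

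Position on chromosomes was not used by the rule. The 119 genes lay on 20 chromosomes, 15 of them (12.6%) on X. Of the other 1398 paired genes 41 (2.93%) lay on X, which were 34 of 632 (5.38%) of those higher and 7 of 766 (0.914%) of those lower in TE-RMS astrocytes. Here every paired gene counts as higher or lower, called or not, while edgeR called 762 lower. The paired genes are those of the part of the study's table read here, with its smallest p-values, so these shares are no measure of the genome and no test was made of them. They included Maoa, Rpgr, Prps2, Mospd2, Pir, Prrg1, Eda2r, Morf4l2, Rnf128, Il13ra1-ps1, Zfp280c, Rap2c, Zfp449 and Tafazzin, spread from 6030795 to 152074001 of the chromosome in mRatBN7.2. Their mean ratios ran from 1.26 to 2.07 with a median of 1.49. The groups did not overlap in any of the 15, as in 111 of all 119, so nothing is read from this count.

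The pups were of either sex, and the 3 paired genes of the Y chromosome had counts in every library. Uty had 11.9, 8.60 and 26.8 CPM in planar and 28.2, 17.2 and 67.2 CPM in TE-RMS libraries, and Eif2s3y 60.4, 48.8 and 177 CPM against 121, 97.6 and 246 CPM. All 3, with Ddx3, were called higher in TE-RMS astrocytes by edgeR (adjusted p from 1.96e-05 to 0.00347), and they were highest in October in both conditions. Only paired genes, with the study's smallest p-values, could be looked up, so nothing is read from these calls. Ddx3, with ratios of 2.05, 2.08 and 2.20, lay inside the rank limit and was set aside by name. The part of the sex of the cells in the values of the X-linked genes was not tested.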

How the data were processed

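Total RNA of 3 TE-RMS and 3 planar libraries was made into non-stranded SMART-Seq libraries. The authors used fastp for trimming, Salmon with Ensembl transcripts (mRatBN7.2) for quantification and tximeta for gene-level sums. What they deposited are estimated counts, unnormalized and already whole, so rounding changed nothing. Salmon divides shared reads by probability, and without strand a gene and its antisense partner could not be told apart. All 6 columns were mapped to samples by their labels.

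CPM used column totals. A total of at least 10 counts was required, which 16331 genes met, and these were tested with edgeR 4.0.16 in R 4.3.3 (TMM, quasi-likelihood test, Benjamini-Hochberg at 0.05), with the run as a block, since the study's methods pair the libraries of a run. The residuals of same-run libraries correlated at 0.271, 0.240 and 0.182, and those of different runs from -0.155 to -0.0657. DESeq2 1.42.0 and limma 3.58.1 were alternatives. The tests were tested on simulated counts. The study states that each run used different animals. Names came from the part of the study's supplementary table that was read here, the 1517 genes with its smallest p-values, 1503 with a symbol. The rest of that table was not used here. Its columns of fold changes and p-values were not used. RefSeq promoters (GRCr8) were matched by symbol, 1 by synonym.

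The selected genes and all lists were chosen with earlier results of these data known. The genes named are the 3 highest-ranked of each role, those on either side of the rank limit, those called for the run and those on the pathway lists. Others were named after their values were seen. Some genes are not reported here, in the text or in the plots.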

Additional observations from a re-analysis of the deposited data

How the results depend on the processing

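With 1 CPM or 5 CPM added in place of 2 CPM, or with TMM library sizes, 104, 106 and 100 of the 119 were selected again, and with a run left out 74 to 80 of them. Without the replicate block, edgeR called 708 genes higher in place of 1528, and 113 of the 119 were called, the others being Bambi, Gpm6a, Adss, Armh4, Snap91 and Mmp2. With the replicate block, DESeq2 and limma-voom called all 119. Genes called for the run numbered 525, against 1245 by DESeq2 and 224 with at least 10 counts in 3 libraries, and among the 119 they numbered 17, against 32 and 8. All 17 were among the 32, and all 8 among the 17, and the cause was not tested. Leaving out a run gave 1046 to 1588 genes called higher, 118 to 119 of the 119, and 14 to 20 of them called for the run, of which 9 to 12 were among the 17. The fold change of no selected gene reversed under the alternatives run. The median fold change of all tested genes ran from -0.14 to -0.04 on the log2 scale across these fits. The 2-run rankings read in the run left out were chosen after seeing the data. Only Rnf128 had a library with under 10 counts, and for the other genes the number of runs, 3, limits the precision.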
